A study of Capra hircus with 23 samples.

Results

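The 100 features described here had higher RNA levels at days 2 and 3 of the chemical induction of goat ear fibroblasts than at day 8. They were also higher than in CK1 and CK2, which are libraries from before induction (day 0). They were selected on their own read counts, as the 100 highest scores among the 18486 features that had at least 1 count over the day 0 libraries and at least 1 over the day 8 libraries, of 28931 features in all. The score was the lowest log2(CPM + 1) among the 4 libraries of days 2 and 3 minus the highest among the day 0 libraries CK1 and CK2 and the 3 day 8 libraries, where CPM is the count divided by the total of its library and scaled to a common total. The third day 0 library, CK3, and the libraries of days 1, 4 and 6 were not part of the score. In 5 members CK3 was at or above the lowest library of days 2 and 3. Values of days 2, 3 and 8 and of CK1 and CK2 are therefore given as a description, and tests were made only between days 1, 4 and 6.

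Fibroblasts from the ears of Guanzhong dairy goats aged 2 to 3 months were grown in fibroblast medium (day 0, BFRTV0d, with 3 libraries) and then in BFRTV induction medium on Matrigel-coated plastic. BFRTV1d, BFRTV2d, BFRTV3d and BFRTV6d had 2 libraries each, and BFRTV4d and BFRTV8d had 3 each. The labels call the day 8 cells induced mammary epithelial cells, and the medium was renewed every 2 days. Passaged induced cells and mammary epithelial cells from the gland were not analysed here. Sample titles carried the codes DF6 and DF7, both at every day, and column names give the day but not the code. The labels do not say that samples of the same day are separate cultures or animals, so p-values measure the spread between these libraries, which may be technical. In bulk RNA, fewer cells of a type and less RNA per cell cannot be told apart.

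The medium holds the 5 compounds forskolin, TTNPB, VPA, RepSox and tranylcypromine. Forskolin activates adenylyl cyclase and raises cyclic AMP, TTNPB is an agonist of retinoic acid receptors, valproic acid (VPA) inhibits histone deacetylases, RepSox inhibits the type I receptor of TGF-beta, and tranylcypromine inhibits monoamine oxidases and the histone demethylase LSD1. In direct reprogramming, transcripts of the starting cell are lost and those of the target cell gained, and some transcripts rise in passing between the start and the end state. The files list features under running IDs, and 0 of them matched the 28911 genes of the RefSeq table of the goat assembly ARS1.2, so no member could be named, no role or sequence is given, and the labelled cell types could not be checked against their markers. All 100 members had IDs with the prefix gene, as had 28745 of all features.

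Library totals ran from 21540742 to 26165393 counts, so that a feature with 0 counts could have a level of up to 3 counts, or 0.115 to 0.139 CPM. Such limits cover counting error only. The libraries of a day were not equally close: the chi-square of their counts per degree of freedom was 2.67 for CK1 with CK2, 3.62 for 5i4d1 with 5i4d2 and 4.21 for 5i8d1 with 5i8d2, against 32.2 to 279 for the other pairs of induced libraries and 1285 or more for CK3 with either CK1 or CK2. No pair agreed within sampling noise, and none was merged. The tests thus counted the close pair 5i4d1 and 5i4d2 as separate libraries of day 4. If they are not separate cultures, the spread in the tests and the p-values may be too small.

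The scores ran from 3.74 to 1.04 on the log2 scale, with a median of 1.46. In all, 2399 of the 18486 features had a score above 0 and 105 had a score of 1 or more. The last features inside the threshold were gene1433, with 47.5 CPM in its lowest day 2 or 3 library against 22.5 CPM in the highest of CK1, CK2 and day 8, and gene10396, with 157 against 76.0 CPM. The first outside were gene5526, with 34.4 against 16.4 CPM, and gene26350, with 1.48 against 0.225 CPM.

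In each of the 6 libraries of days 1 to 3 the members took over 1% of all counts. Their share was 0.291, 0.294 and 0.175% in CK1, CK2 and CK3. It reached 1.35% in 5i1d1, 1.41 and 2.01% in the day 2 libraries and 1.18 and 1.87% in the day 3 libraries. The day 4 libraries had 0.762, 0.793 and 1.14%, those of day 6 had 0.331 and 0.411% and those of day 8 had 0.249, 0.257 and 0.259%. The share of the day 6 libraries thus lay above that of CK1 and CK2, and that of 5i4d3 above those of 5i4d1 and 5i4d2. Abundant members weigh most in such a share. The median difference of the members from the mean of CK1 and CK2, in log2(CPM + 1), was 0.318 in 5i6d1 and 0.448 in 5i6d2.

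**Figure D1:**
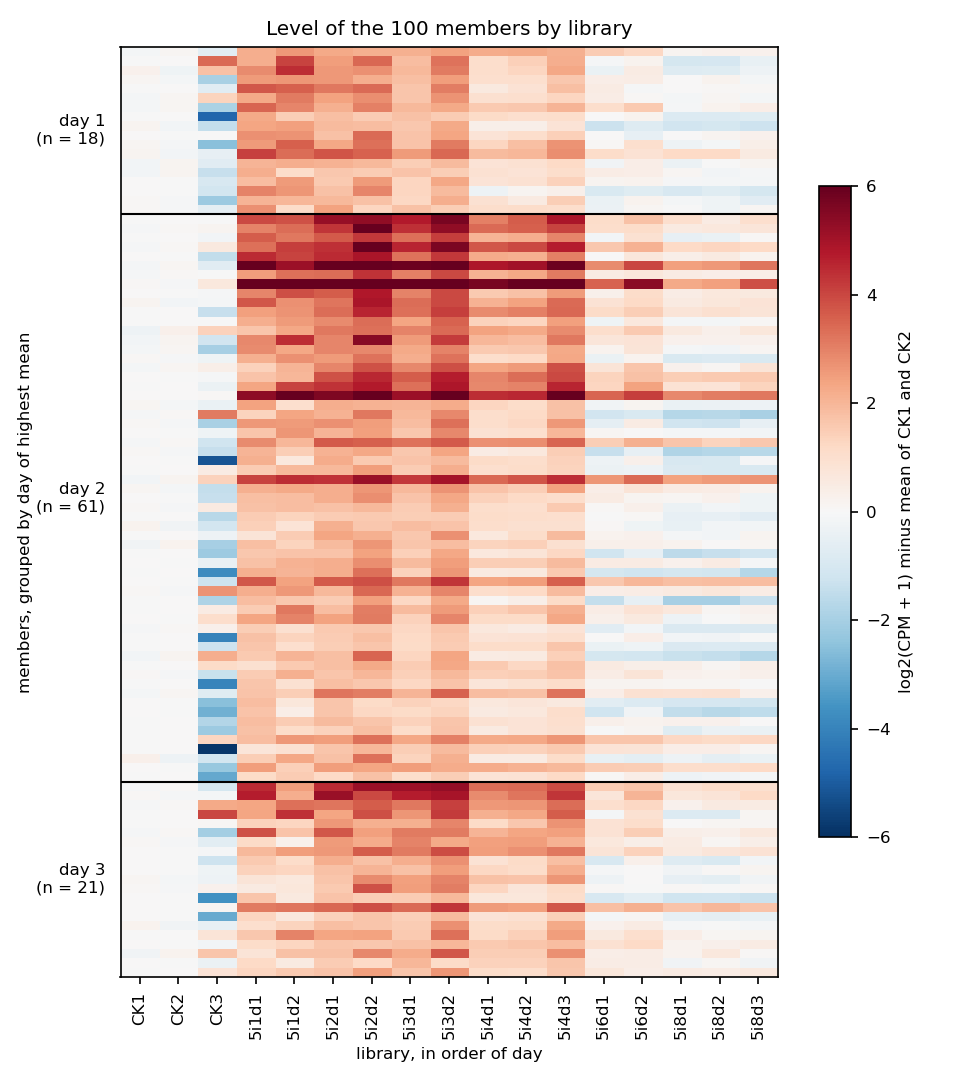
Level of each of the 100 members (rows) in each of the 17 libraries (columns), as log2(CPM + 1) minus the mean of CK1 and CK2, with differences over 6 drawn as 6. Rows are grouped by the day with the highest mean (18 at day 1, 61 at day 2 and 21 at day 3) and ordered by score within a group; the colour fades from day 4 and is faint by day 6.

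The member with the highest score, gene5531, had under 3 counts in each day 0 library. In the order of the column names, it had 0, 0.0408 and 0 CPM in CK1, CK2 and CK3, 15.1 and 13.6 in the day 1 libraries, 37.8 and 39.2 in those of day 2, 26.8 and 51.6 in those of day 3, 7.37, 11.5 and 29.1 in those of day 4, 1.21 and 2.46 in those of day 6 and 1.08, 0.447 and 1.07 in those of day 8. Its day 4 libraries spread from 7.37 to 29.1 CPM, and both day 6 libraries lay below all of them. The second, gene24533, had 0.0417, 0.163 and 0.232 CPM in CK1, CK2 and CK3, 7.60 and 10.4 in the day 1 libraries, 20.5 and 83.5 in those of day 2, 21.9 and 43.2 in those of day 3, 10.5, 12.2 and 17.6 in those of day 4, 1.29 and 1.33 in those of day 6 and 0.585, 0.691 and 0.803 in those of day 8. Its level in 5i2d2 was 83.5 CPM against 20.5 in 5i2d1, so the libraries of its highest day differed more than those of any other induced day did. The third, gene13117, had 1.00, 1.23 and 0 CPM in CK1, CK2 and CK3, 46.1 and 11.2 in the day 1 libraries, 46.2 and 76.4 in those of day 2, 72.7 and 79.3 in those of day 3, 20.9, 21.1 and 30.5 in those of day 4, 5.08 and 5.61 in those of day 6 and 3.02, 3.58 and 3.06 in those of day 8. There the day 1 libraries lay apart, at 46.1 and 11.2 CPM, while day 3 was even. The next 3 by score were gene7269 with a mean of 63.9 CPM over the 4 libraries of days 2 and 3, gene8177 with 365 CPM and gene20424 with 29.7 CPM. The other 4 of the 10 highest scores were gene12636 with 288 CPM, gene1704 with 158 CPM, gene293 with 35.3 CPM and gene16517 with 59.6 CPM.

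The levels of the members differed widely. Their mean CPM over days 2 and 3 ran from 2.84 to 2655, with a median of 33.8. Of the 100, 80 had a mean of 10 CPM or more and 28 a mean of 100 CPM or more. The most abundant by CPM, gene24644, had 171, 171 and 66.0 CPM in CK1, CK2 and CK3, 959 and 1121 in the day 1 libraries, 1753 and 4083 in those of day 2, 1697 and 3085 in those of day 3, 1210.2, 1382 and 1863 in those of day 4, 382 and 481 in those of day 6 and 293, 333 and 293 in those of day 8. It was already above every day 0 library at day 1 and stayed above CK1 and CK2 in all libraries of day 8. The next, gene6817, had 803, 849.7 and 29.8 CPM in CK1, CK2 and CK3, 3986 and 2274 in the day 1 libraries, 2924 and 2414 in those of day 2, 2818 and 2360.1 in those of day 3, 1849.6, 1678 and 1709.8 in those of day 4, 840.0 and 963 in those of day 6 and 460.1, 465 and 502 in those of day 8. Its highest library was 5i1d1, and its day 8 libraries were below CK1 and CK2. The third, gene11630, had 99.2, 93.1 and 39.7 CPM in CK1, CK2 and CK3, 1276 and 517 in the day 1 libraries, 1244 and 1401 in those of day 2, 866 and 1901 in those of day 3, 496, 549.7 and 1158 in those of day 4, 299.7 and 380.1 in those of day 6 and 344, 353 and 347 in those of day 8. It ended at 3 to 4 times its CK1 and CK2 levels. Per length, gene6817 had a higher level than gene24644 over days 2 and 3, with a mean of 1684 FPKM (counts scaled to the library total and to feature length) against 1495 FPKM, a difference within the spread of the libraries, and gene11630 had 326 FPKM. The others of the 6 highest by CPM were gene192 with 181 FPKM, gene25433 with 428 FPKM and gene13858 with 77.7 FPKM.

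**Figure D2:**
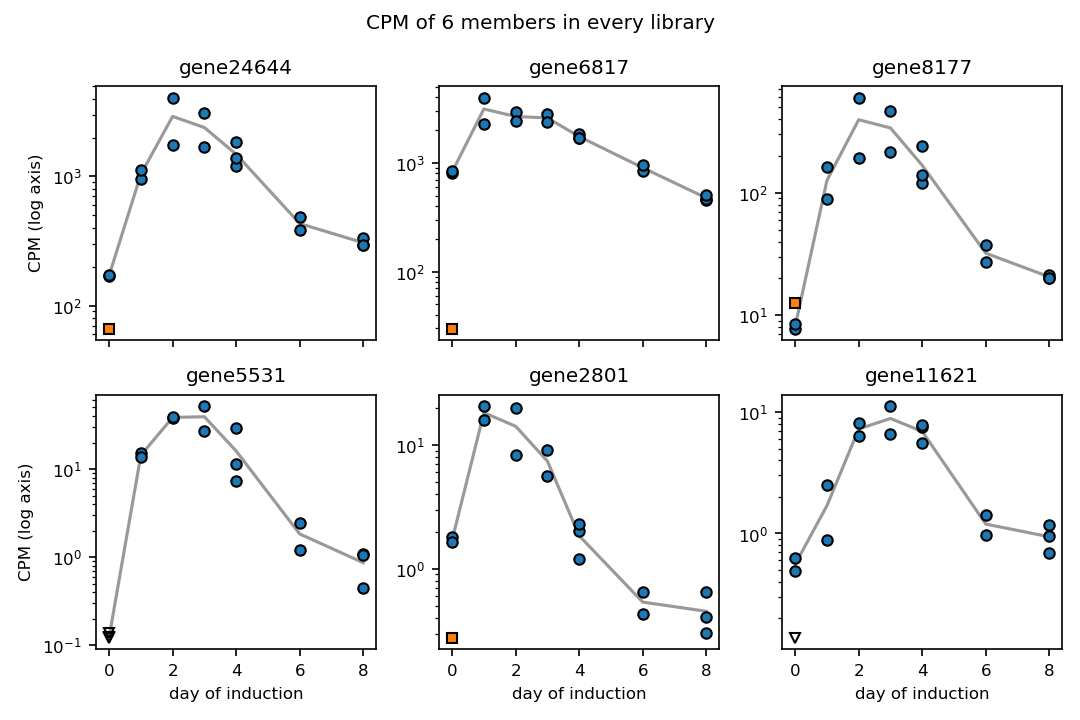
Levels of 6 members by day, in CPM with a logarithmic scale, 1 point per library; the orange square is CK3, open triangles mark libraries under 3 counts, drawn at the level of 3 counts, and the line joins the means of the day, CK3 left out. gene24644, gene8177 and gene5531 were highest at day 2 or 3, gene6817 and gene2801 at day 1, and gene11621 stayed near its day 3 level at day 4.

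Members did not all have their highest level at days 2 and 3. By the day mean of log2(CPM + 1), 61 were highest at day 2, 21 at day 3 and 18 at day 1, which the score did not use. In 2 members, gene8988 and gene4708, both day 1 libraries were above all 4 libraries of days 2 and 3 (7.06% of detected features). In gene8988 they held 37.8 and 34.6 CPM against 25.6 and 30.5 at day 2 and 8.35 and 24.2 at day 3. In the other direction, both day 1 libraries of 25 members were below all 4 libraries of days 2 and 3 (6.81% of detected features). The libraries of days 2 and 3 chose the members, so nothing is read from either count. All 100 members had both day 1 libraries above CK1 and CK2, as had 34.2% of the 18486 detected features. CK1 and CK2 were part of the score, so this count is a description of the members. The mean CPM at day 1 was between 9.85% and 233% of that over days 2 and 3, with a median of 75.1%, and it was over 100% in 25 members and under 50% in 21. For gene7993, among the lowest, the libraries held 2.46 and 3.22 CPM at day 1, a mean of 18.7 ± 6.64 (SD, n = 2) at day 2 and 12.3 and 26.4 at day 3.

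After day 3 the members' levels were lower at day 4 and lower again at day 6. The mean CPM at day 4 was a median of 53.8% of that over days 2 and 3 (range 17.1% to 98.8%), and at day 6 a median of 16.5% (range 2.33% to 52.4%). At day 4 it was under 50% in 39 members, and at day 6 in 98. All 3 day 4 libraries were below all 4 libraries of days 2 and 3 in 41 members (8.67% of detected features), and both day 6 libraries were so in 100 (28.6% of detected features). The libraries of days 2 and 3 chose the members, and nothing is read from these counts. The 2 members over 50% at day 6 were gene1433, at 52.4%, and gene25433, at 50.3%. The latter had 204, 206 and 2.60 CPM in CK1, CK2 and CK3, 342 and 386 in the day 1 libraries, 659 and 809 in those of day 2, 574 and 768 in those of day 3, 545, 543 and 605 in those of day 4, 359 and 348 in those of day 6 and 271, 273 and 224 in those of day 8.

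Day 6 was compared with day 4 to ask whether levels differed further in the second part of the induction, in libraries that did not choose the members. The score set members high at days 2 and 3 and low at day 8, so a fall in between was built in. Days 4 and 6 lie within that span. The values below therefore describe when levels fell and are no separate evidence that they fell. Both day 6 libraries were below all 3 day 4 libraries in 100 of 100 members, against 34.9% of the 16122 features tested. The median log2 fold change of the members was -1.50 (range -3.37 to -0.35), beside a median of 0.01 over all features tested. All 100 passed the filter on low counts. In gene7171 and gene25368 both day 6 libraries were under the filter's level of 0.418 CPM, so these passed through their other days, and gene7171 held the lowest fold change (both are named after their values were seen). With edgeR's quasi-likelihood test, fitted to the 7 libraries of days 1, 4 and 6, 0 members passed an adjusted p under 0.05, and 0% of all features were called lower and 0% higher. At an unadjusted p under 0.05, 85 members were lower and 0 higher, against 6.73% of all features lower. The fit of the 5 libraries of days 4 and 6 alone called 54 members lower (4.91% of its 15730 features), and DESeq2 called 56 lower (1.97%). Leaving out 5i1d1 or 5i1d2 from the fit of 7 libraries gave a median log2 fold change of the members of -1.50 and -1.52. Leaving out any library of day 4 gave 0 calls, among the members and over all features. The day 1 libraries were the pair of induced libraries that differed most, with a chi-square per degree of freedom of 279. The part of that difference in the call was not tested beyond these fits.

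For single members the day 6 values were as follows. gene24533 held 10.5, 12.2 and 17.6 CPM at day 4 and 1.29 and 1.33 at day 6 (log2 fold change -3.25 ± 0.39 (SE), adjusted p = 0.0945 with edgeR). In the fit of days 4 and 6 alone it stood at -3.27 ± 0.30 (SE), with an adjusted p of 0.0126. gene5531 was lower by a like amount (log2 fold change -3.02 ± 0.67 (SE), adjusted p = 0.168 with edgeR), with an adjusted p of 0.0488 in the fit of days 4 and 6 alone. The abundant gene24644 lay at 1210.2, 1382 and 1863 CPM at day 4 and 382 and 481 at day 6 (log2 fold change -1.68 ± 0.28 (SE), adjusted p = 0.122 with edgeR), and its adjusted p was 0.0202 in the fit of these days alone. The smallest difference among the 6 most abundant was that of gene25433 (log2 fold change -0.57 ± 0.20 (SE), adjusted p = 0.286 with edgeR), with an adjusted p of 0.0259 in the fit of these days alone. In each of these 4 members the libraries of the days did not overlap. Their calls differed with the libraries and the tool: all 4 also passed without 5i1d1, and gene24533, gene5531 and gene24644 passed with DESeq2 on the 7 libraries.

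**Figure D3:**
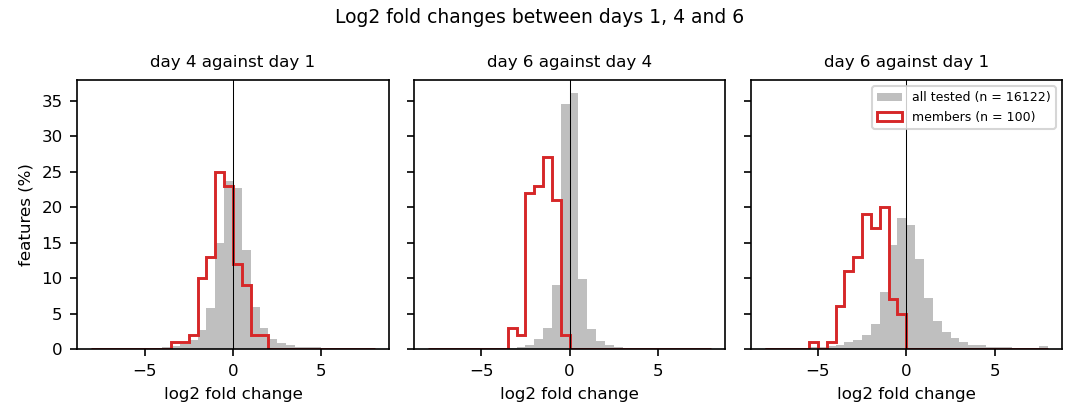
Share of features in % against the log2 fold change for each pair of days 1, 4 and 6, in bins of 0.5, for all 16122 features tested (grey) and the 100 members (red outline); changes beyond 8 are drawn in the last bin. The members' medians were -0.54, -1.50 and -2.05 from left to right, beside 0.00, 0.01 and -0.02 for all features.

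Day 4 was compared with day 1 to ask where the members stood on either side of days 2 and 3. The median log2 fold change was -0.54 (quartiles -1.07 and -0.01), beside 0.00 over all features. With edgeR's test 12 members were lower at day 4 (5.42% of all features) and 2 were higher (5.61%), and 86 did not pass. In 33 members all 3 day 4 libraries were below both day 1 libraries, against 23.6% of the features tested. The largest fall was in gene2801, which held 1.79, 1.63 and 0.279 CPM in CK1, CK2 and CK3, 20.5 and 15.9 in the day 1 libraries, a mean of 14.2 ± 8.26 (SD, n = 2) in those of day 2, 5.65 and 9.15 in those of day 3, 1.20, 2.02 and 2.32 in those of day 4, 0.431 and 0.646 in those of day 6 and 0.405, 0.650 and 0.306 in those of day 8 (log2 fold change -3.36 ± 0.34 (SE), adjusted p = 0.00401 with edgeR). Its day 4 libraries held at most 2.32 CPM and did not overlap with day 1. gene8988 fell from 37.8 and 34.6 CPM at day 1 to 3.42, 4.37 and 9.40 CPM at day 4 (log2 fold change -2.74 ± 0.46 (SE), adjusted p = 0.0154 with edgeR). gene4708 fell from 58.9 and 62.7 to 13.7, 13.4 and 19.2 CPM, a log2 fold change of -2.06. gene10135 fell from 17.2 and 30.8 to 6.13, 6.47 and 8.11 CPM, a log2 fold change of -1.92. Apart from gene2801, these calls were lost without 5i4d1 or without 5i4d2. The members that rose were gene11621, from 2.51 and 0.882 CPM to 7.46, 7.74 and 5.53 CPM (log2 fold change 2.00 ± 0.44 (SE), adjusted p = 0.0332 with edgeR), and gene7993, from 2.46 and 3.22 to 7.19, 9.85 and 15.7 CPM (log2 fold change 1.84 ± 0.44 (SE), adjusted p = 0.0409 with edgeR). Neither passed without 5i4d1, 5i4d2, 5i4d3, 5i6d1 or 5i6d2. The abundant gene6817, with 3986 and 2274 CPM at day 1 and 1849.6, 1678 and 1709.8 at day 4, passed as well (log2 fold change -0.89 ± 0.21 (SE), adjusted p = 0.041 with edgeR), and that call too was lost when any library of day 4 or 6 was left out. The 14 calls became 1 without 5i4d1, 1 without 5i4d2 and 9 without 5i4d3. Over all features, 1778 calls became 330, 283 and 910 in the same fits. The median log2 fold change of the members was -0.61 without 5i1d1, -0.46 without 5i1d2 and -0.53 without 5i6d1 or 5i6d2.

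The calls of day 4 against day 1 were also counted by the day of the highest mean. Of the 18 members highest at day 1, 10 were called lower at day 4 and 0 higher, with a median log2 fold change of -1.56. Of the 61 highest at day 2, 2 were called lower and 1 higher, with a median of -0.51. Of the 21 highest at day 3, 0 were called lower and 1 higher, with a median of 0.02. Day 1 entered both this grouping and the comparison, so the counts of calls and the order of the medians are a description and no result.

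Day 6 was compared with day 1 to ask how the members stood late in induction against its first day. It shares its libraries with the comparisons above. Day 6 lies between days that the score set high and low, so low levels at day 6 were in part built in. The median log2 fold change was -2.05 (range -5.03 to -0.03), beside -0.02 over all features. With edgeR's test 72 of 100 members were lower at day 6 (13.4% of all features) and 0 were higher (13.1%). The largest fall was again in gene2801 (log2 fold change -5.03 ± 0.44 (SE), adjusted p = 0.00115 with edgeR). gene16660 fell from 19.3 and 59.4 CPM to 1.12 and 2.99 CPM (log2 fold change -4.30 ± 0.85 (SE), adjusted p = 0.0129 with edgeR), and this call was lost without 5i6d1 (edgeR adjusted p = 0.0979). gene12636 fell from 312 and 239 to 13.7 and 21.9 CPM (log2 fold change -3.92 ± 0.40 (SE), adjusted p = 0.00165 with edgeR). gene8988 fell from 37.8 and 34.6 to 3.10 and 1.78 CPM (log2 fold change -3.87 ± 0.56 (SE), adjusted p = 0.00493 with edgeR). gene25433 did not pass, with 342 and 386 CPM at day 1 and 359 and 348 at day 6 (log2 fold change -0.03 ± 0.21 (SE), adjusted p = 0.914 with edgeR). In a fit of all 17 libraries the 72 calls became 43, while the 4283 calls over all features became 1794. The median log2 fold change of the members was -1.90 without 5i6d1 and -2.23 without 5i6d2. By the day of the highest mean, 18 of 18 members highest at day 1, 46 of 61 highest at day 2 and 8 of 21 highest at day 3 were called lower. Day 1 entered this grouping too, so the order of these counts is built in and is no result.

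The level at which members ended differed. Both day 6 libraries were above all 3 day 8 libraries in 50 members (17% of detected features), and day 8 was part of the score. At day 8 all 3 libraries were above CK1 and CK2 in 39 members and below both in 33, against 39.9% and 36% of detected features. Among those above was gene1704, with 0.584, 0.817 and 0.0464 CPM in CK1, CK2 and CK3, 127 and 58.5 in the day 1 libraries, 169 and 161 in those of day 2, 99.3 and 201 in those of day 3, 47.6, 54.6 and 99.7 in those of day 4, 11.0 and 26.7 in those of day 6 and 8.33, 9.19 and 14.6 in those of day 8. Among those below was gene192, with 244, 246 and 66.7 CPM in CK1, CK2 and CK3, 901 and 744 in the day 1 libraries, 712 and 1361 in those of day 2, 581 and 1179.6 in those of day 3, 266, 312 and 537 in those of day 4, 91.3 and 175 in those of day 6 and 59.8, 61.6 and 93.2 in those of day 8. gene1704 thus ended above its CK1 and CK2 levels and gene192 below them, without overlap in either. At day 6, both libraries were above CK1 and CK2 in 60 members and below both in 15, against 43.2% and 34.3% of detected features. CK1, CK2 and day 8 were part of the score, and these counts are a description.

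Between libraries of the same day most members differed in 1 direction at days 2, 3, 4 and 6. In 5i4d3, 89 of 100 members were higher than in 5i4d1, with a median difference of 0.66 in log2(CPM + 1), while 50.8% of the 15437 detected features averaging at least 10 counts were. In 5i6d2, 77 members were higher than in 5i6d1 (median 0.31, 53.7% of these features). Days 4 and 6 did not choose the members. At days 2 and 3, which did, 68 were higher in 5i2d2 and 92 in 5i3d2 than in the first library of the day, against 41.4% and 46.2% of these features. At day 1, 53 were higher in 5i1d2 and 47 in 5i1d1, against 41.3% of these features higher in 5i1d2, and the difference spread with an SD of 0.880 over the members, the widest of the induced days. Between 5i4d2 and 5i4d1 the median difference was 0.08. The size of the difference between days 6 and 4 moved with the library left out. Without 5i4d3 the median log2 fold change of day 6 against day 4 was -1.14, without 5i6d1 it was -1.32 and without 5i6d2 it was -1.80, all of the same sign.

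**Figure D4:**
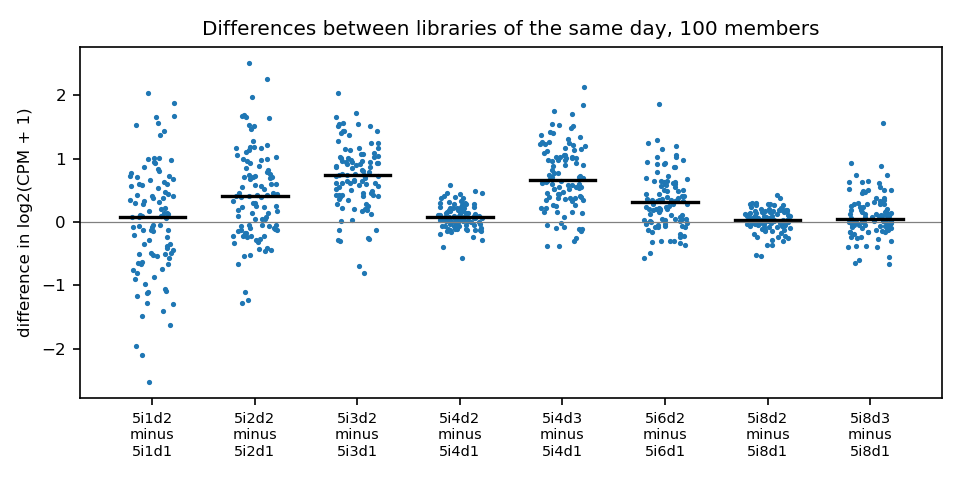
Difference in log2(CPM + 1) between libraries of the same day for the 100 members, 1 point per member, spread sideways for display, with a black bar at the median. 5i3d2 and 5i4d3 lay above the first library of their day by medians of 0.74 and 0.66, while 5i4d2 and 5i8d2 lay close to it.

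CK3, the day 0 library outside the score, stood apart from CK1 and CK2 in the members much as in the other features. It was below both CK1 and CK2 in 68 members and above both in 28, against 66.5% and 24.9% of the 18486 detected features, and 10 members had 0 counts in it, against 16.9%. The members highest in CK3 were gene9032, gene15750 and gene26130. gene9032 had 68.7, 75.8 and 630.2 CPM in CK1, CK2 and CK3, 185 and 374 in the day 1 libraries, 309 and 649 in those of day 2, 284 and 538 in those of day 3, 149.9, 166 and 246 in those of day 4, 31.7 and 38.0 in those of day 6 and 21.5, 22.1 and 18.2 in those of day 8. gene15750 had 8.47, 9.11 and 159 CPM in CK1, CK2 and CK3, 49.3 and 204 in the day 1 libraries, 50.1 and 141 in those of day 2, 60.4 and 181 in those of day 3, 41.5, 48.5 and 119.9 in those of day 4, 7.97 and 17.4 in those of day 6 and 4.59, 4.47 and 9.71 in those of day 8. gene26130 had 10.1, 10.7 and 120.0 CPM in CK1, CK2 and CK3, 49.8 and 186 in the day 1 libraries, 62.9 and 123 in those of day 2, 39.7 and 109 in those of day 3, 22.8, 30.0 and 50.8 in those of day 4, 9.73 and 12.1 in those of day 6 and 4.46, 4.59 and 7.38 in those of day 8. In all 3, CK3 was over 8 times the level of CK1 or CK2 and above 3 of the 4 libraries of days 2 and 3. With CK3 counted among the day 0 libraries of the score, 86 of the 100 members stayed among the 100 highest.

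**Figure D5:**
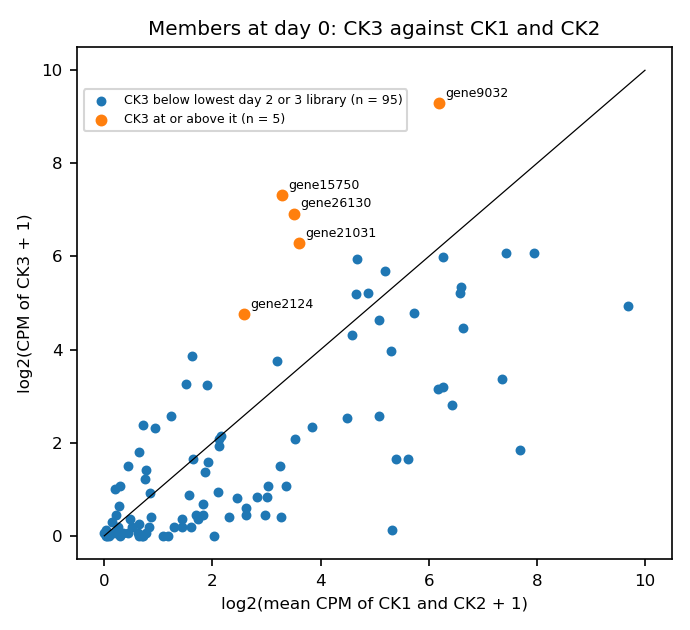
Level of each member in CK3 against the mean of CK1 and CK2, both as log2(CPM + 1), with the line of equal levels. The 5 named members (orange) were at or above their lowest day 2 or 3 library in CK3, and most of the other 95 lay below the line.

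The members were longer, at the median, than the detected features, which is given as a description. The length implied by the deposited FPKM, a single whole number per feature, had a median of 4284.5 nt over the members (range 837 to 17257), against 2608 nt over the detected features and 3246 nt over the 8442 detected features within the members' interquartile range of level at days 2 and 3. Of the 100, 71 were longer than the median of detected features. The longest were gene16992 with 17257 nt, gene3171 with 12710 nt and gene9435 with 11684 nt, and the shortest were gene6687 with 837 nt, gene25486 with 881 nt and gene1486 with 1111 nt. gene16992 held 80.5 and 32.8 CPM at day 2 and 51.8 and 52.7 at day 3. gene6687 held 2.93 and 2.12 CPM at day 2 and 4.30 and 2.04 at day 3.

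Members with neighbouring ID numbers formed 2 pairs, gene1486 with gene1487 and gene5733 with gene5734. The files do not say what the order of the IDs means. gene1486 had 0.542, 0.572 and 2.46 CPM in CK1, CK2 and CK3, 2.05 and 3.60 in the day 1 libraries, 4.41 and 6.43 in those of day 2, 3.44 and 6.74 in those of day 3, 3.55, 2.74 and 4.33 in those of day 4, 1.29 and 0.969 in those of day 6 and 0.990, 0.691 and 0.994 in those of day 8. gene1487 had 24.6, 24.6 and 60.8 CPM in CK1, CK2 and CK3, 92.7 and 153 in the day 1 libraries, 145 and 252 in those of day 2, 125 and 209 in those of day 3, 122, 128 and 157 in those of day 4, 79.1 and 79.2 in those of day 6 and 59.0, 56.4 and 58.7 in those of day 8. In both, the same library was the highest at each of days 2, 3 and 4, namely 5i2d2, 5i3d2 and 5i4d3. Of all members, 68 were higher in 5i2d2, 92 in 5i3d2 and 89 in 5i4d3 than in the first library of the day. The shared order of libraries thus does not set gene1486 and gene1487 apart. Neither passed edgeR's test in the 3 comparisons of the fit of days 1, 4 and 6. In edgeR's fit of days 4 and 6 alone both were lower at day 6, with adjusted p of 0.0381 for gene1486 and 0.0344 for gene1487. gene5733 had 9.97 and 7.03 CPM at day 2 and 7.04 and 12.6 at day 3, and gene5734 had 5.26 and 5.63 CPM at day 2 and 2.66 and 11.0 at day 3. Neither of them passed in either fit.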

How the data were processed

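RNA depleted of ribosomal RNA from goat fibroblasts at days 0 to 8 of induction was sequenced by the authors on an Illumina instrument. The authors deposited raw counts per feature and FPKM values for 17 libraries. The deposited FPKM followed from the counts, the library totals and one length per feature for all 22657 listed features (relative tolerance 1e-06). The submitters' processing notes name FastQC 0.10.1, HTSeq and DESeq2 1.16.1. Aligner, annotation and genome build are not given in the sources used here, and the strand setting of the counting is not known, so overlapping features cannot be told apart.

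Levels are CPM by column totals. Counts of days 1, 4 and 6 were compared by the quasi-likelihood test of edgeR 4.0.16 under R 4.3.3 (filterByExpr, TMM factors, Benjamini-Hochberg adjusted p over 16122 features, calls at an adjusted p under 0.05). The SE was derived from the log2 fold change and its F statistic. The test was tried on simulated data. Alternatives were DESeq2 1.42.0, RLE scaling, no filter, a mean of 5 CPM, limma 3.58.1 on log2(FPKM + 1) and log2(FPKM + 0.1), other sets of libraries and leaving out each library. The members, the comparisons and the rule for named features were chosen with earlier results of these data known. Named were the 10 highest scores, the threshold, the 6 highest mean CPM, the 4 largest called changes per direction and comparison, the 3 highest in CK3, the 3 longest and shortest, and neighbouring IDs. Of 23 labelled samples, 6 had no column and were not analysed here.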

Additional observations from a re-analysis of the deposited data

Results flagged for a closer look

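In CK3, a day 0 library that the score did not use, 5 members were at or above their lowest library of days 2 and 3, although CK1 and CK2 were below it by construction. These were gene15750, gene9032, gene26130, gene21031 and gene2124. gene21031 held 11.9, 10.5 and 77.0 CPM in CK1, CK2 and CK3 and 45.4 CPM in its lowest day 2 or 3 library, and gene2124 held 4.38, 5.59 and 26.1 CPM against 13.7. CK3 stood apart from CK1 and CK2 over all features as well, with a chi-square per degree of freedom of 1294 against CK1, and its column name does not give its code (DF6 or DF7).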

How the results depend on the processing

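No paired analysis was possible because column names show the day of a library and not its labelled replicate, so the fit with a replicate block was not run. For day 6 against day 4, the 0 members called became 56 with DESeq2, 54 in the fit of the 2 days alone, 4 with limma on log2(FPKM + 1) and 1 with no filter, and 0 to 55 when single libraries were left out. For day 4 against day 1, the 14 became 30 with DESeq2, 4 with all 17 libraries and 9 in the fit of the 2 days alone, and 1 to 45 without single libraries. For day 6 against day 1, the 72 became 43 with all 17 libraries and 44 in the fit of the 2 days alone, and 19 to 83 without single libraries. RLE scaling gave 0, 15 and 72 calls. The median log2 fold change of the members kept its sign in all 3 comparisons under every alternative run. Among named members, the log2 fold change of day 4 against day 1 changed sign without 5i1d1 for gene13117 and gene1433. It was then 0.91 for gene13117 (-0.89 to 0.91 over all single libraries left out) and 0.49 for gene1433 (-0.40 to 0.49). Neither was called with all libraries, and without 5i1d1 day 1 kept 1 library. Over all features, day 6 against day 4 gave 0 calls, against 649 with DESeq2, 34 with no filter, 70 and 1 with limma at the larger and smaller pseudocount, 3 with all 17 libraries, 1633 in the fit of the 2 days alone and 0 to 1603 without single libraries. The 1778 calls of day 4 against day 1 became 3427 with DESeq2, 1175 at a mean of 5 CPM, 579 with all 17 libraries, 870 in the fit of the 2 days alone and 283 to 10109 without single libraries. The 4283 of day 6 against day 1 became 1794, 1445 and 1042 to 10839 with all 17 libraries, with the 2 days alone and without single libraries. Of the 100 members, 60 to 96 stayed among the 100 highest scores when the rule was changed, the fewest (60) with means in place of the lowest and highest library. The cause of these differences was not tested. Days with 2 libraries limit the precision, and a day left with 1 library was assumed to vary like the others.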
